A study of Mus musculus with 8 samples.

Results

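The lysosome was described through 39 genes for its enzymes, its membrane proteins, its proton pump and the transcription factors of the MiT family. The genes were chosen by symbol, and all 39 were found among the 23238 symbols of the count tables and passed the filter on low counts, which left 13347 genes to test. They comprised 10 proteases, 6 glycosidases, 5 proteins of lipid handling, 5 membrane proteins, 3 MiT factors, and 10 subunits or accessory proteins of the proton pump. The study profiled stromal cells of the uterus after removal of the ovaries, in mice of strain C57BL/6-ICR. Mice received an injection of oil or of estradiol (E2), and carried either floxed Atg7 (genotype Atg7f/f, called control) or deleted Atg7 (Atg7d/d, called deleted). Each of the 4 combinations had 2 libraries, so that 8 libraries were compared. The Cre line was Amhr2cre, and the series describes the deletion as one in the uterine mesenchyme. The control label names no Cre allele, all 4 groups lacked ovaries, and the sources used here do not give age, the dose and time of estradiol or the way in which stroma was separated from epithelium. No label ties the pair of libraries in a group to separate mice, so each p-value measures only the spread between these libraries, which may be technical.

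Lysosomes break down material delivered by endocytosis and by autophagy. Their hydrolases need an acid lumen, which the vacuolar proton pump (V-ATPase) makes: its V1 part on the cytosolic side splits ATP, and its V0 part in the membrane carries the protons. Atg7 is the E1-like enzyme that activates the ubiquitin-like proteins with which autophagosomes form, and autophagosomes end by fusing with lysosomes. The MiT factors Tfeb, Tfe3 and Mitf bind E-box motifs with the core CACGTG in the promoters of many lysosomal genes, within a longer motif known as the CLEAR element.

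Libraries held between 5453943 and 6944769 counts, with reads taken from the 3′ end of transcripts, so a count stands for a transcript whatever its length and levels are given as CPM, counts scaled to library size, without division by length. Atg7 itself had 22 and 32 counts in control oil, 21 and 33 in deleted oil, 20 and 23 in control estradiol, and 23 and 22 in deleted estradiol libraries. These 3′ reads do not check the deletion of an internal exon, and the groups overlapped. Replicates correlated with r between 0.949 and 0.978 over log-scale levels of the genes tested, lowest in control oil, where 14.9% of genes differed more than 2-fold between the pair of libraries, against 5.16% to 7.38% elsewhere. Control oil library 1 stood apart, also in its markers. Summed levels of 15 epithelium markers lay between 4965 and 18440 CPM in oil and between 1414 and 3000 CPM in estradiol libraries, with 18440 CPM in control oil library 1 and 6334 CPM in control oil library 2. Summed levels of 14 fibroblast markers lay between 2264 and 3320 CPM in oil and between 6385 and 9144 CPM in estradiol libraries. The oil libraries, labelled stroma, thus held more reads of these epithelium markers than of these fibroblast markers, and no marker of either list was at 0.

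Promoter sequence is described first, because the members are known as targets of factors that bind CACGTG. It was read with the expression results already known. Promoter windows of 300 bases, from 250 bases before to 50 bases after the start of transcription, came from RefSeq on GRCm38.p6, and 33 of the 39 members had at least 1 window. CACGTG, which reads the same on both strands, was in the window of 12 of these 33 genes (36.4%), against 8.09% of all 27025 genes with a window. The longer core TCACGTGA, which contains CACGTG, was in 6 of the 33 (18.2%) against 1.12% of all genes: Ctsa, Ctsd, Gla, Mcoln1, Atp6v0d1 and Atp6v1a. The palindromic estrogen response element, GGTCA and TGACC with any 3 bases between, was in none of the 33 windows and in 0.074% of all genes. These are matches of letters and not measured binding, and the absence of a match says only that these letters are not in the window. No window of Ctsb, Ctsh, Asah1, Npc1, Atp6v1b2 or Atp6v1h was read.

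The stretches printed here are those of 4 members with the motif and, for comparison, of Ctsk and Gusb, picked because they rose most after estradiol, which have none. Each begins 150 bases before the RefSeq start, reads 5′ to 3′ on the strand of the gene, holds no annotated exon of the gene, and has CACGTG in capitals. Lamp1 lies at chr8:13159011-13159160 on the plus strand and holds 4 copies, whose first bases are 61, 45, 28 and 15 bases before the start. Mcoln1 at chr8:3500369-3500456, plus strand, has 1 copy in the stretch and another nearer the start. Lgmn at chr12:102439093-102439242, minus strand, belongs to an inner RefSeq start and lies in an intron of the annotated gene, and Ctsf is at chr19:4855015-4855129, plus strand. Ctsk at chr3:95499060-95499209, plus strand, and Gusb at chr5:130003050-130003199, minus strand, hold no copy.
Lamp1: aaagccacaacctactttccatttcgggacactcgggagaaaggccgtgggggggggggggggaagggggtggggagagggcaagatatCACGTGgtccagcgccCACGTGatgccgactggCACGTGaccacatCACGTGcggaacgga
Mcoln1: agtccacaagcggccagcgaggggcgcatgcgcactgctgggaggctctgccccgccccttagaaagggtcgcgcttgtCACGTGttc
Lgmn: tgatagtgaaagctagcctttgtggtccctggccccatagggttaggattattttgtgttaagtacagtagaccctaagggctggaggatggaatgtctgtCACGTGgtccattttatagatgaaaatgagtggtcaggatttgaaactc
Ctsf: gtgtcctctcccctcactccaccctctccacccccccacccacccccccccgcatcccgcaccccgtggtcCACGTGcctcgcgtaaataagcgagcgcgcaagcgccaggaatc
Ctsk: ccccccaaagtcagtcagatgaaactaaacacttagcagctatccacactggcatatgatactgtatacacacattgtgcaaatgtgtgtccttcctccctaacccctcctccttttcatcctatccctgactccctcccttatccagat
Gusb: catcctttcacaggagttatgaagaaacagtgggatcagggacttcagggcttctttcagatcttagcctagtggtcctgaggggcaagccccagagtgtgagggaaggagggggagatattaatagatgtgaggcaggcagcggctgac

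The first comparison asked how estradiol changed the lysosomal genes of stroma. Averaged over both genotypes, 13 of the 39 members passed the test: 10 rose and 3 fell. Over all genes tested 24.1% rose and 22.2% fell. Cathepsin K (Ctsk, 6.0-fold) and beta-glucuronidase (Gusb, 3.1-fold) rose most. Mitf (5.8-fold) and cathepsin F (Ctsf, 4.4-fold) fell most, and sialidase Neu1 fell by 0.58 on the log2 scale. The other 8 that rose did so by 0.40 to 0.84 on the log2 scale: Atp6v0d1, Lipa, Lgmn, Atp6ap1, Cd63, Ctsb, Atp6v1d and Lamp1. A gene passed when edgeR's quasi-likelihood test gave a Benjamini-Hochberg adjusted p of at most 0.05 over all 13347 genes, and 46.3% of all genes tested did so. The members' share was 33.3%, below that background. The difference lay with members that fell, 3 of 39 against 22.2% of all genes. The 10 of 39 that rose were near the 24.1% of all genes. By role the share was 40% of proteases, 33.3% of glycosidases, 20% of lipid-handling members, 40% of membrane proteins and 33.3% of MiT factors. Of the proton pump it was 33.3% of V0, 20% of V1 and 50% of accessory members. Each role had only 2 to 10 genes, so these shares were not read as differences. The median size of the members' log2 fold change was 0.32 against 0.55 over all genes tested. A change of more than 2-fold was seen in 4 members (10.3%) against 24.8% of all genes. These shares are not matched for expression level and the difference was not tested. The signed median log2 fold change was 0.17 for members and 0.02 for all genes. In 15 of the 39 members (38.5%, against 45.9% of all genes tested) the 4 estradiol libraries lay entirely above or below the 4 oil libraries, 12 above and 3 below (24.3% and 21.5% of all genes), among them Asah1 and Atp6v1a, which did not pass the test.

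**Figure D1:**
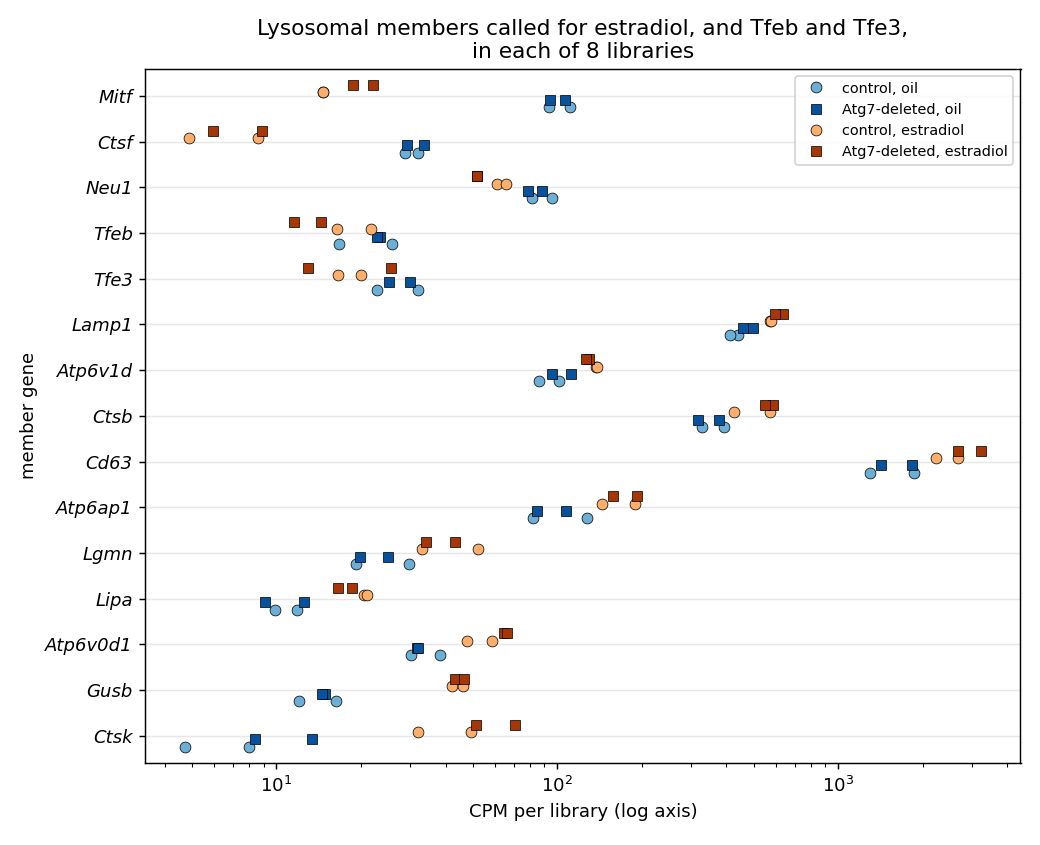
Levels of the 13 members that passed the estradiol test and of Tfeb and Tfe3 in each of 8 libraries, in CPM on a log axis, with 1 point per library and colour for the treatment and genotype. Orange points lie left of all blue points for Mitf, Ctsf and Neu1 and right of them for the 10 members that rose, and colours mix for Tfeb and Tfe3.

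The MiT factors moved unequally. Mitf, which lies at chr6:97807052-98021349 on the plus strand (GENCODE, mm10), is the family member best known from pigment cells, osteoclasts and mast cells. Its level was 111 and 93.3 CPM in control oil, 107 and 93.9 CPM in deleted oil, 14.7 and 14.6 CPM in control estradiol, and 22.1 and 18.8 CPM in deleted estradiol libraries. All oil libraries were far above all estradiol libraries, and the replicates of each group were close. The log2 fold change averaged over genotypes was -2.55 ± 0.14 (SE; edgeR adjusted p = 1.75e-05). Mast cell markers, whose cells are known to use Mitf, summed to 44.4 to 81.1 CPM in oil and 24.1 to 52.0 CPM in estradiol libraries, ranges that overlap, with none of the 9 at 0 and 2 of the 6 tested falling. Their part in the result, and that of the epithelium markers, which were also lower after estradiol, was not tested. In these bulk libraries fewer cells of a type and less RNA per cell cannot be told apart.

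Tfeb, the factor most closely tied to lysosome formation, was at 25.7 and 16.6 CPM in control oil, 23.4 and 22.8 CPM in deleted oil, 21.8 and 16.4 CPM in control estradiol, and 11.5 and 14.4 CPM in deleted estradiol libraries. The control groups overlapped, and the deleted estradiol libraries were the lowest of the 8. Its average log2 fold change of -0.49 ± 0.19 (SE) missed the threshold (edgeR adjusted p = 0.065) and was not called with DESeq2. Over 15 other ways of fitting, including leaving out any 1 library, it ranged from -0.64 to -0.30. Tfe3, its close relative, was at 32.0 and 22.8 CPM in control oil, 29.9 and 25.2 CPM in deleted oil, 16.6 and 20.0 CPM in control estradiol, and 13.0 and 25.6 CPM in deleted estradiol libraries. Estradiol values were lower except in deleted estradiol library 2, which lay within the oil range. The average log2 fold change of Tfe3 was -0.55 ± 0.23 (SE, edgeR adjusted p = 0.0771), and it was not called with DESeq2. Over the same 15 other ways of fitting it ranged from -0.83, without deleted estradiol library 2, to -0.34. Summed over the 3 factors, the level was 151 ± 25.3 CPM (SD, n = 2) in control oil and 151 ± 12.7 CPM in deleted oil, and 52.1 ± 1.46 CPM in control estradiol and 52.7 ± 8.57 CPM in deleted estradiol libraries. Most of the summed difference was that of Mitf.

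Of the 10 proteases, 3 rose, 1 fell and 6 did not pass. Ctsk, a cysteine protease that cuts collagen and is best known from osteoclasts, lies at chr3:95499256-95509362 on the plus strand. Its level was 4.73 and 7.97 CPM in control oil, 8.38 and 13.4 CPM in deleted oil, 49.2 and 32.0 CPM in control estradiol, and 70.9 and 51.4 CPM in deleted estradiol libraries. Even the lowest estradiol library was more than 2-fold above the highest oil library. The average log2 fold change was 2.58 ± 0.25 (SE; edgeR adjusted p = 0.000128). Fibroblast markers moved the same way, with 9 of 14 higher, 2 lower and the sums given above, and smooth muscle markers summed to 1597 to 4017 CPM in oil and 6212 to 7156 CPM in estradiol libraries, with 5 of 8 higher and 1 lower. Macrophage markers, from a cell type rich in cathepsins, summed to 179 to 241 CPM in oil and 213 to 364 CPM in estradiol libraries, with 5 of 14 tested higher, 1 lower and none of 15 at 0. Their part in the rise of Ctsk and of the other enzymes was not tested.

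Ctsf, a cysteine protease of the papain family like Ctsk, lies at chr19:4855130-4860918 on the plus strand and moved the other way. It was at 28.7 and 31.9 CPM in control oil, 29.2 and 33.6 CPM in deleted oil, 4.89 and 8.61 CPM in control estradiol, and 5.94 and 8.90 CPM in deleted estradiol libraries. The oil libraries were tightly grouped, and every estradiol library was under them by more than 2-fold. The average log2 fold change was -2.12 ± 0.22 (SE; edgeR adjusted p = 0.000171). The promoter window of Ctsf holds CACGTG and that of Ctsk does not. Members with the motif moved in both directions: of the 12, Lamp1, Atp6v0d1 and Lgmn rose, Ctsf fell and the other 8 did not pass. Of the 21 members whose window lacks the motif, 8 passed, and the difference was not tested.

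Ctsb, an abundant cathepsin with both endo- and exopeptidase activity, was at 392 and 329 CPM in control oil, 375 and 316 CPM in deleted oil, 425 and 573 CPM in control estradiol, and 589 and 547 CPM in deleted estradiol libraries. The groups by treatment did not overlap, but control estradiol library 1 came near the oil range, and the rise was 0.59 ± 0.14 (log2 fold change, SE; edgeR adjusted p = 0.0092). Lgmn, the asparagine endopeptidase legumain that processes other cathepsins, was at 19.2 and 29.6 CPM in control oil, 19.8 and 25.1 CPM in deleted oil, 52.2 and 33.0 CPM in control estradiol, and 43.2 and 34.1 CPM in deleted estradiol libraries. It rose by 0.80 ± 0.21 (log2 fold change, SE; edgeR adjusted p = 0.0133), a call lost without control estradiol library 1 (adjusted p = 0.0564) or deleted estradiol library 1 (adjusted p = 0.0568). The remaining proteases Ctsa, Ctsd, Ctsh, Ctsl, Ctss and Ctsz had log2 fold changes between -0.16 (Ctsd, the main aspartic protease of lysosomes) and 0.45 (Ctsl), and none passed. Without control oil library 2, Ctsl passed at 0.66 (edgeR adjusted p = 0.00747). Summed over the 10 proteases, levels were 1001 ± 36.0 CPM (SD, n = 2) in control oil, 1002 ± 28.1 CPM in deleted oil, 1172 ± 87.9 CPM in control estradiol and 1347 ± 43.9 CPM in deleted estradiol libraries.

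Among the 6 glycosidases, Gusb rose, Neu1 fell and the other 4 did not pass. Gusb, which removes glucuronic acid from glycosaminoglycans, lies at chr5:129989011-130003049 on the minus strand. It was at 11.99 and 16.3 CPM in control oil, 14.9 and 14.5 CPM in deleted oil, 42.3 and 46.1 CPM in control estradiol, and 43.2 and 46.4 CPM in deleted estradiol libraries. Treatment separated the libraries cleanly and genotype did not, and the average log2 fold change was 1.63 ± 0.15 (SE; edgeR adjusted p = 0.000101). Neu1, which removes terminal sialic acid and lies at chr17:34931253-34935953 on the plus strand, was at 95.4 and 81.1 CPM in control oil, 87.9 and 78.6 CPM in deleted oil, 60.8 and 65.8 CPM in control estradiol, and 51.8 and 51.9 CPM in deleted estradiol libraries. Every estradiol library was below every oil library, and the fall was 0.58 ± 0.12 on the log2 scale (edgeR adjusted p = 0.00455). Ctsa, the protective protein that holds Neu1 and beta-galactosidase in a complex, had a log2 fold change of -0.02 and Glb1, the beta-galactosidase, of 0.00. Gla, Hexa and Gaa lay between -0.30 and 0.29. The sum over the 6 glycosidases stayed between 248 and 282 CPM in all 8 libraries.

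Of 5 lipid-handling members 1 passed. Lipa, the acid lipase that frees cholesterol and fatty acids from lipoprotein lipids, was at 11.8 and 9.91 CPM in control oil, 12.5 and 9.14 CPM in deleted oil, 20.5 and 21.1 CPM in control estradiol, and 16.6 and 18.6 CPM in deleted estradiol libraries. It rose by 0.82 ± 0.18 (log2 fold change, SE; edgeR adjusted p = 0.00531), with the control estradiol libraries the highest. Psap, the precursor of the saposins that present sphingolipids to hydrolases, was at 682 and 620 CPM in control oil, 748 and 703 CPM in deleted oil, 597 and 691 CPM in control estradiol, and 895 and 746 CPM in deleted estradiol libraries. Npc2, which carries cholesterol in the lumen, was at 324 and 219 CPM in control oil, 297 and 257 CPM in deleted oil, 272 and 287 CPM in control estradiol, and 318 and 303 CPM in deleted estradiol libraries. Both overlapped across treatments and did not pass, at 0.08 ± 0.13 and 0.10 ± 0.15 (log2 fold change, SE; edgeR adjusted p = 0.63 and 0.588). Npc1, the membrane partner of Npc2, and the ceramidase Asah1 did not pass either, at 0.20 and 0.44.

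Of the 5 membrane proteins, Cd63 and Lamp1 rose. Cd63, a tetraspanin of late endosomes and lysosomes and the member with the most counts, was at 1869 and 1294 CPM in control oil, 1831 and 1424 CPM in deleted oil, 2230 and 2666 CPM in control estradiol, and 3218 and 2676 CPM in deleted estradiol libraries. It rose by 0.74 ± 0.17 (log2 fold change, SE; edgeR adjusted p = 0.00757). Lamp1, a heavily glycosylated protein that lines the lysosomal membrane, was at 440 and 413 CPM in control oil, 498 and 457 CPM in deleted oil, 570 and 578 CPM in control estradiol, and 638 and 595 CPM in deleted estradiol libraries. Treatment separated all 8 libraries for both genes. The rise of Lamp1, 0.40 ± 0.11 (log2 fold change, SE; edgeR adjusted p = 0.019), was small and lost its call without control estradiol library 1 (adjusted p = 0.0545) or 2 (0.0566), deleted oil library 2 (0.0679) or deleted estradiol library 1 (0.0744). Lamp2, its relative with roles in chaperone-mediated autophagy and vesicle fusion, was at 484 and 329 CPM in control oil, 464 and 361 CPM in deleted oil, 351 and 350 CPM in control estradiol, and 388 and 316 CPM in deleted estradiol libraries. Its treatments overlapped and its log2 fold change of -0.22 ± 0.16 (SE) did not pass (edgeR adjusted p = 0.286). Scarb2, an integral protein of the lysosomal membrane, and Mcoln1, a calcium channel, had -0.05 and -0.07 and did not pass. An exon of Lamp1 overlaps the gene Grtp1 on the other strand and an exon of Ctsb overlaps Fdft1, and a processed copy named Cd63-ps exists. The sources used here do not say whether the counting used strand, so reads of such partners could be included.

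Of the 10 proton pump members 3 rose, each from another part of the complex, where 46.3% of all genes tested passed in either direction. Atp6v0d1, a V0 subunit that joins the membrane ring to the stalk, was at 30.1 and 38.1 CPM in control oil, 31.6 and 31.8 CPM in deleted oil, 58.7 and 47.8 CPM in control estradiol, and 64.8 and 66.0 CPM in deleted estradiol libraries. Every estradiol library was higher than every oil library, and the rise was 0.84 ± 0.14 (log2 fold change, SE; edgeR adjusted p = 0.00141). Atp6ap1, an accessory protein needed for assembly, was at 127 and 82.0 CPM in control oil, 107 and 84.6 CPM in deleted oil, 145 and 190 CPM in control estradiol, and 192 and 157 CPM in deleted estradiol libraries, and rose by 0.77 ± 0.18 (log2 fold change, SE; edgeR adjusted p = 0.0075). Atp6v1d, a V1 subunit of the central stalk, was at 101 and 86.0 CPM in control oil, 112 and 95.6 CPM in deleted oil, 137 and 138 CPM in control estradiol, and 129 and 127 CPM in deleted estradiol libraries. Its rise of 0.43 ± 0.12 (log2 fold change, SE; edgeR adjusted p = 0.0166) lost its call without deleted oil library 2 (adjusted p = 0.0633), deleted estradiol library 1 (0.0591) or deleted estradiol library 2 (0.0516).

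The other 7 pump members did not pass. Atp6v0a1 and Atp6v0c, the V0 subunits that form the proton path, had log2 fold changes of -0.29 and -0.26. Atp6v1a and Atp6v1b2, which form the ATP-splitting head, had 0.28 and 0.17, Atp6v1h had 0.31 and Atp6v1e1 had 0.04. Atp6ap2, the accessory protein also known as the prorenin receptor, had -0.31 ± 0.32 (SE), with 301 and 99.1 CPM in control oil, 174 and 105 CPM in deleted oil, 114 and 146 CPM in control estradiol, and 155 and 122 CPM in deleted estradiol libraries. The control oil libraries alone differed more than 2-fold. Without control oil library 1 its log2 fold change was 0.20, and without control oil library 2 it was -0.63 and passed (edgeR adjusted p = 0.0234). Summed over the 10, levels were 1084 ± 262 CPM (SD, n = 2) in control oil, 1027 ± 157 CPM in deleted oil, 1176 ± 84.1 CPM in control estradiol and 1213 ± 63.3 CPM in deleted estradiol libraries, so the sums of the groups overlapped.

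All 39 members together took 0.606% and 0.530% of the counts in control oil, 0.637% and 0.579% in deleted oil, 0.686% and 0.740% in control estradiol, and 0.866% and 0.775% in deleted estradiol libraries. Each estradiol library was above each oil library in this share of unscaled counts, and Cd63 made the largest part of it. In CPM the summed levels of control oil library 1 and control estradiol library 1 were nearly equal, at 6616 and 6657 CPM. Cd63 alone was at 1869 and 2230 CPM in these libraries. Control oil library 1 was the library richest in epithelium markers. Without it, the median log2 fold change of the members, averaged over genotypes, was 0.22, against 0.17 with all 8 libraries. The remaining oil libraries still held 4965 to 11490 CPM of epithelium markers, against 1414 to 3000 CPM in estradiol libraries. Estradiol and epithelium content therefore cannot be told apart in this fit.

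Estradiol was next compared within each genotype. These comparisons share no library, but both use the spread estimated over all libraries, so their calls are not independent. In control stroma 7 members passed (17.9%, against 29.8% of all genes tested), 5 higher and 2 lower, where 15.8% of all genes were higher and 14% lower, and in deleted stroma 9 passed (23.1%, against 24.3% of all genes), 6 higher and 3 lower, where 13.1% of all genes were higher and 11.2% lower. These counts rested on single libraries. The control count was 4 without either control estradiol library, and 8 without control oil library 1. The deleted count was 5 without either deleted oil library and 4 without either deleted estradiol library. Mitf, Ctsf, Ctsk and Gusb passed in both genotypes and kept these calls when any 1 library was left out. For Mitf the log2 fold change was -2.80 ± 0.20 (SE) in control and -2.29 ± 0.19 in deleted stroma, with edgeR adjusted p = 0.000242 and 0.000561. For Ctsf it was -2.17 ± 0.31 and -2.07 ± 0.31 (edgeR adjusted p = 0.00206 and 0.0031). Ctsk had 2.68 ± 0.36 and 2.49 ± 0.35 (edgeR adjusted p = 0.0017 and 0.0025). Gusb had 1.65 ± 0.21 and 1.61 ± 0.21 (edgeR adjusted p = 0.00137 and 0.00204). The sign was the same in both genotypes for 33 of 39 members (84.6%, against 85.9% of all genes tested), and for all 11 members called in either. Of these 11, 5 were called in both, where 2699 of 4521 of all genes called in either were. The fifth was Atp6v0d1, at 0.64 ± 0.20 in control and 1.04 ± 0.20 in deleted stroma (edgeR adjusted p = 0.0367 and 0.00724). With DESeq2 its call in control stroma was lost (adjusted p = 0.0683).

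**Figure D2:**
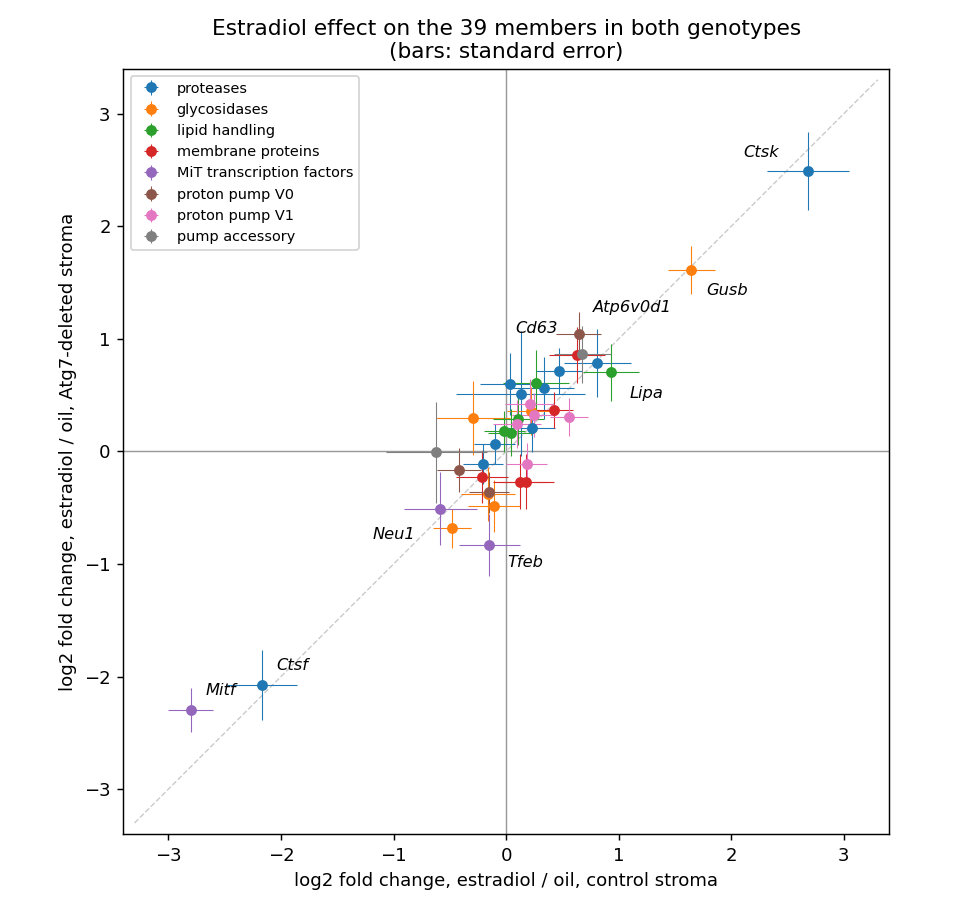
Estradiol effect on each of the 39 members as log2 fold change in control stroma (horizontal) and in Atg7-deleted stroma (vertical), coloured by role, with bars for the standard error and a dashed line of equal effect. Ctsk and Gusb at upper right and Mitf and Ctsf at lower left stand away from the other members in both genotypes, and Tfeb lies further below 0 in deleted than in control stroma.

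The difference of the estradiol effect between genotypes was tested directly as an interaction. It passed for 0 of 39 members and for 0% of all genes tested by edgeR. At an unadjusted edgeR p of at most 0.05 it passed for 0 members (0%) and 210 genes (1.57%), and DESeq2 called 0 members. Among the MiT factors, Tfeb had -0.15 ± 0.27 (SE) in control and -0.83 ± 0.28 in deleted stroma. The latter missed the threshold (edgeR adjusted p = 0.0572). It passed when only the 2 groups compared were fitted (edgeR adjusted p = 0.0212) and was not called with DESeq2. Over 16 other ways of fitting it ranged from -0.998 to -0.68. The value in control stroma turned to 0.23 without control oil library 1. The 2 effects of Tfeb had a difference of -0.68 with a 95% interval from -1.56 to 0.19. Mitf had a difference of 0.51 with a 95% interval from -0.10 to 1.11, that is, a smaller fall in deleted stroma. Both intervals include 0 and also include differences of more than 2-fold, so a difference of that size was neither shown nor bounded.

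The last comparison asked what deletion of Atg7 did to the lysosomal genes. No member passed in oil, after estradiol or averaged over both, and 0% of all genes tested passed in each of these comparisons by edgeR. At an unadjusted edgeR p of at most 0.05, 0 members (0%) and 339 genes (2.54%) passed in oil. After estradiol 1 member (2.56%) and 403 genes (3.02%) passed, and on average 1 member (2.56%) and 543 genes (4.07%). Among 39 members, counts of 0 or 1 are near the shares of all genes tested and were not read as a difference. DESeq2 called 0 members in each comparison. For most members the 95% intervals bounded the difference between these deleted and control libraries, in which the deletion itself was not checked. The 95% interval of the log2 fold change lay within a 2-fold change either way for 36 of 39 members in oil (92.3%, against 58.7% of all genes tested), 33 after estradiol (84.6%, against 60%) and 37 on average (94.9%, against 77.1%). These shares were not matched for expression level. The median log2 fold change of the members was 0.02 in oil and 0.10 after estradiol, and over all genes tested -0.01 in both.

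Ctsk was the member with an unadjusted p at or under 0.05 on average. Its values by library, given above, were higher in both deleted oil libraries than in both control oil libraries, and higher in both deleted than in both control estradiol libraries. The average log2 fold change was 0.69 ± 0.25 (SE) with a 95% interval from 0.13 to 1.24, which did not pass over all genes (edgeR unadjusted p = 0.021, adjusted p = 0.999). Mitf was the member under that unadjusted p after estradiol, at 0.48 ± 0.20 (SE; 95% interval 0.03 to 0.93; edgeR unadjusted p = 0.0377, adjusted p = 1). Tfeb after estradiol had -0.56 ± 0.28 (SE; 95% interval -1.19 to 0.07), and its deleted libraries were below its control libraries. Psap averaged 0.25 ± 0.13 (SE; 95% interval -0.04 to 0.54).

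**Figure D3:**
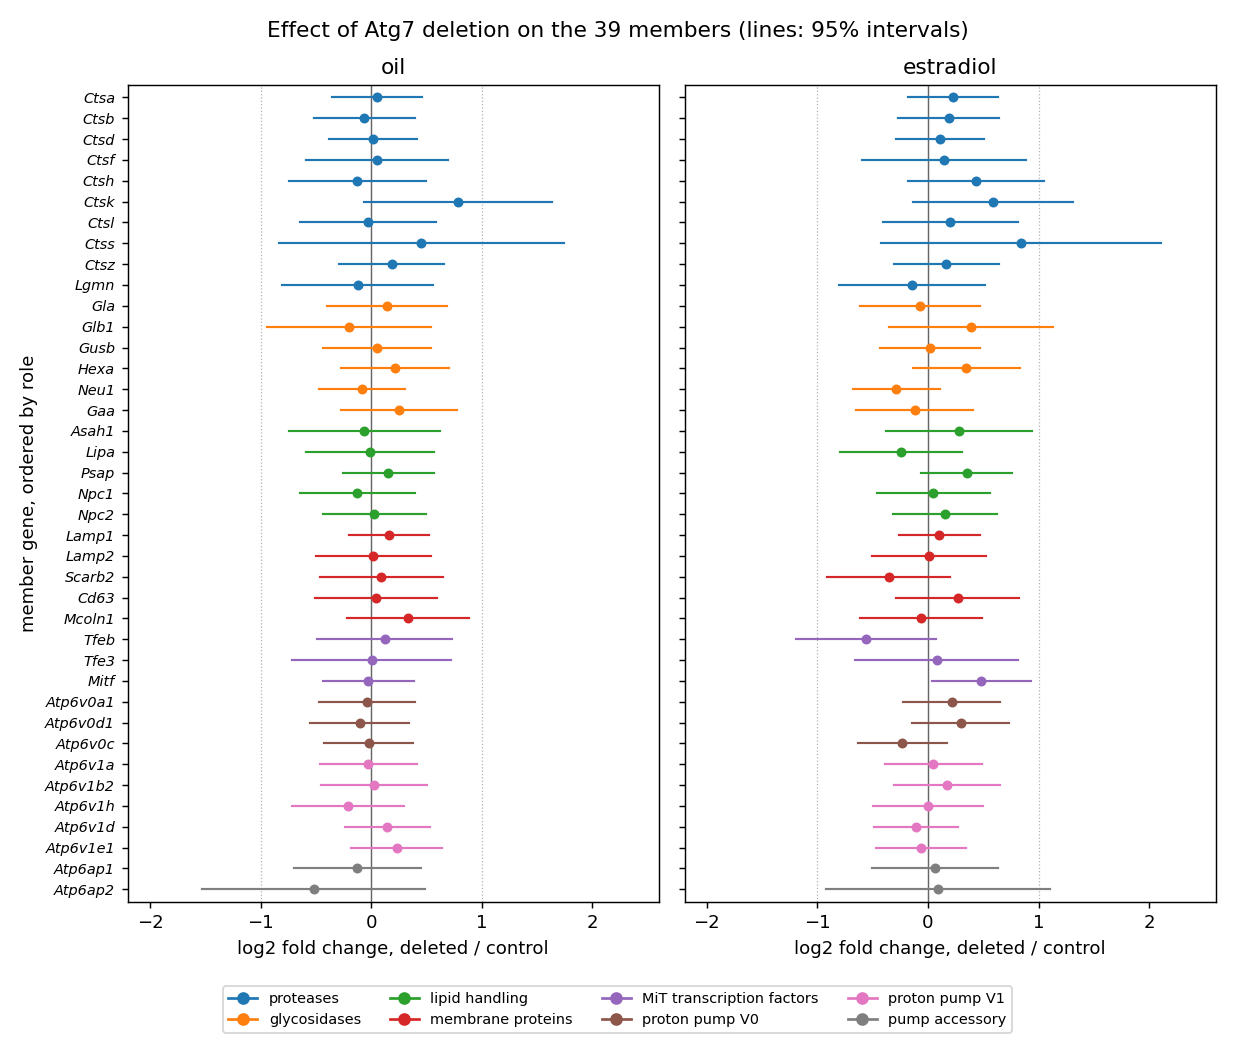
Effect of Atg7 deletion on each of the 39 members, ordered and coloured by role, as log2 fold change in oil (left) and after estradiol (right), with lines for 95% intervals and dotted lines at a 2-fold change. All intervals cross 0 except that of Mitf after estradiol, which lies just above it, and the widest in both panels are those of Ctss and Atp6ap2.

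Without a test, the deleted oil libraries did not overlap the control oil libraries for 4 members, all higher (10.3%, against 24.5% of all genes tested not overlapping and 12.9% higher). After estradiol 19 members did not overlap, 13 higher and 6 lower in deleted stroma (48.7%, against 34.2% of all genes tested, 16% higher and 18.2% lower). Macrophage marker sums did not overlap between genotypes in either treatment: they summed to 195 and 179 CPM in control oil, 204 and 241 CPM in deleted oil, 251 and 213 CPM in control estradiol, and 364 and 292 CPM in deleted estradiol libraries. Ctss, a cathepsin known from antigen-presenting cells, was at 16.7 and 5.13 CPM in control oil, 11.5 and 18.6 CPM in deleted oil, 17.0 and 6.92 CPM in control estradiol, and 26.1 and 17.0 CPM in deleted estradiol libraries. Its control libraries differed more than 2-fold within each treatment, and its average deletion effect was 0.65 ± 0.40 (log2 fold change, SE; 95% interval -0.26 to 1.55). After estradiol other marker sums also did not overlap between genotypes: endothelium markers summed to 2184 and 2281 CPM in control and 1699 and 1995 CPM in deleted libraries. Mast cell markers summed to 52.0 and 48.9 CPM in control and 34.7 and 24.1 CPM in deleted libraries, lower in deleted stroma where Mitf was higher. The part of these markers in the members' values was not tested.

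**Figure D4:**
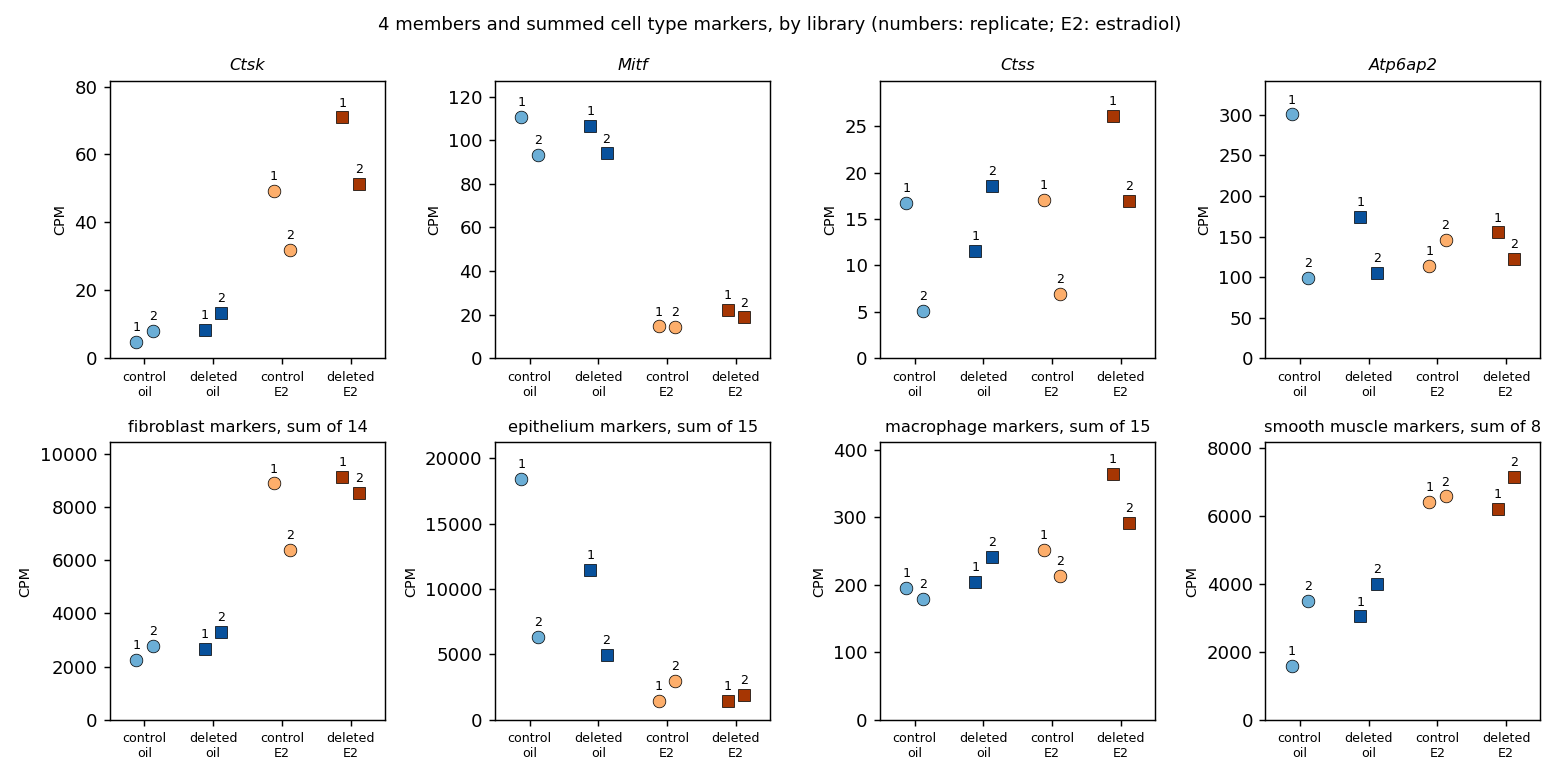
Levels of Ctsk, Mitf, Ctss and Atp6ap2 (upper row) and summed markers of fibroblasts, epithelium, macrophages and smooth muscle (lower row) in each library, in CPM from 0, numbered by replicate. Fibroblast and smooth muscle sums are higher and epithelium sums lower in all estradiol libraries, and control oil library 1 has the highest epithelium sum (18440 CPM) and the highest Atp6ap2 level (301 CPM).

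Other genes of the pathway, from lists that do not contain the members, were read from the same test. Of 153 listed genes 137 were tested, and after estradiol 39 rose and 20 fell on average over genotypes (43.1%, against 46.3% of all genes tested). None passed in any comparison of deleted with control stroma. Among 37 other hydrolases and activators, 11 rose and 3 fell. Ctsc, the dipeptidyl peptidase that activates granule proteases, rose by 1.46 ± 0.25 (log2 fold change, SE; edgeR adjusted p = 0.00158), and Sgsh, a heparan sulfate sulfamidase, rose by 1.55 ± 0.30 (edgeR adjusted p = 0.00318).

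In the 29 other lysosomal membrane genes 6 rose and 6 fell. Those with the smallest p were Tpcn1, an ion channel of endosomes and lysosomes, at -1.30 ± 0.15 (log2 fold change, SE), Sidt2 at -0.94 ± 0.12, the amino acid transporter Slc38a9 at -1.03 ± 0.16, and the sialomucin Cd164 at 0.83 ± 0.12. Among 11 other pump subunits 3 rose and 3 fell. Atp6v1c2, an isoform of a V1 subunit, fell. It had 97 and 32 counts in control oil, 20 and 4 in deleted oil, 0 and 3 in control estradiol, and 1 and 0 in deleted estradiol libraries. Within each genotype its count was highest in the library richest in epithelium markers. Across genotypes the order differed: deleted oil library 1 had 11490 CPM of these markers and 20 counts, control oil library 2 had 6334 CPM and 32 counts. The part of epithelium in its counts was not tested. Atp6v1g2 and Atp6v0e2 fell by 1.65 ± 0.38 and 0.79 ± 0.17, while Atp6v0a4 rose by 1.01 ± 0.26 on the log2 scale.

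Sorting genes, which bring enzymes to the lysosome, included 10 that rose and 5 that fell among 28. The adaptor subunits Ap1s1 and Ap3m1 rose by 1.54 ± 0.15 and 1.097 ± 0.12, and Nagpa, which uncovers the mannose 6-phosphate tag, by 0.997 ± 0.12 (log2 fold change, SE). Sorl1, a sorting receptor, fell by 2.87 ± 0.35, from 16.4 to 47.8 CPM over the oil libraries to 3.07 to 5.66 CPM over the estradiol libraries. Among 26 genes that control the MiT factors at the lysosome, 8 rose and 3 fell. The 4 with the smallest p were subunits of Ragulator, the complex that anchors mTORC1 signalling at the lysosome. Lamtor1 was at 49.9 and 56.3 CPM in control oil, 58.8 and 65.5 CPM in deleted oil, 127 and 130 CPM in control estradiol, and 117 and 125 CPM in deleted estradiol libraries, a rise of 1.12 ± 0.12 (log2 fold change, SE; edgeR adjusted p = 0.000181). Lamtor2, Lamtor3 and Lamtor4 rose by 1.04 ± 0.14, 1.06 ± 0.15 and 0.87 ± 0.14. Lamtor5, named after its values were seen, rose by 0.74 ± 0.16 (edgeR adjusted p = 0.00599). Of 6 tested cathepsin inhibitors, Serpinb1a rose by 1.34 ± 0.23 and the others did not pass. The calls of the genes of these lists chosen by rank held in each of 15 other ways of fitting, including leaving out any 1 library.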

How the data were processed

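Whole-number read counts per gene were deposited by the authors, 1 table per library, from 3′-end libraries (Lexogen QuantSeq, 500 ng of total RNA) per the labels' protocols. Bowtie2, edgeR and the build mm10 are listed, without versions or roles, per the submitters' processing notes. The sources used here do not give the counting program, its annotation or its use of strand. Of 23282 lines, 35 symbols had more than 1 line; the line with the most counts was kept, which left out 0.0973% of the counts. The count test was edgeR 4.0.16 in R 4.3.3 (TMM scaling, filterByExpr with a minimum count of 10 and total of 15, quasi-likelihood fit of 4 group means over 8 libraries), with Benjamini-Hochberg adjustment over 13347 genes and a threshold of 0.05. CPM values use TMM-scaled totals, and standard errors come from the fold change and its F statistic. With 2 libraries against 2 an exact permutation test cannot go below 0.333, so none is given. Genes described by library were those called in any comparison, the MiT factors and the 6 highest by mean CPM, and of each other list up to 4 called genes with the smallest p; some of the latter are not reported here. Members and lists were chosen with earlier results of these data known. The script was tested on simulated counts. Alternatives covered DESeq2 1.42.0, scaling, filters, the samples fitted, a replicate block and each library left out. Gene coordinates are from GENCODE M21 and promoters from RefSeq, both on GRCm38.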

Additional observations from a re-analysis of the deposited data

How the results depend on the processing

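The 13 member calls for estradiol averaged over genotypes ranged from 10 to 17 with 1 library left out, and 10 of the 13 genes passed in all 15 alternatives. In control stroma, fitting only the groups compared gave 4 members (7 otherwise) and 2305 genes (3978 otherwise), and leaving out 1 library gave 4 to 9 members and 1505 to 4168 genes. In deleted stroma, leaving out 1 library gave 4 to 11 members (9 otherwise) and 740 to 4345 genes (3242 otherwise). Of the 16 member calls within a genotype 8 passed in all 16 alternatives, and no called member changed direction. Averaged over treatments, deletion gave 0 genes, 3 with DESeq2, 4 with no filter on low counts and 0 to 1 with 1 library left out, and no member in any alternative. Estradiol on Tfeb in control stroma (log2 fold change -0.15) ranged from -0.46 to 0.23 with 1 library left out (0.23 without control oil library 1, 0.04 without control estradiol library 2), and Npc2 on average (0.10) from -0.04 to 0.27 (-0.04 without control oil library 2). With 1 library left out, the averages of other uncalled members that changed sign ranged from -0.11 to 0.072 (Ctsa), -0.072 to 0.89 (Ctss), -0.23 to 0.19 (Glb1), -0.17 to 0.11 (Scarb2), -0.19 to 0.056 (Mcoln1), -0.034 to 0.10 (Atp6v1e1) and -0.63 to 0.20 (Atp6ap2). Library totals as scaling gave 0.030 for Ctsa and let Atp6v1a pass (edgeR adjusted p = 0.0493), and Glb1 (0.00) had -0.025 with DESeq2, -0.029 with median-of-ratios scaling and -0.025 with a minimum count of 30; the cause was not tested. With no filter on low counts Tfeb passed in deleted stroma and Tfe3 and Ctsl on average (edgeR adjusted p = 0.0448, 0.0425 and 0.0404).

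Replicate numbers were treated as names: same-numbered libraries had correlations of deviations from -0.231 to 0.494 over the 6 pairs of groups. With the replicate number as a block, edgeR called 4094 genes and 7 members for estradiol in control stroma, 3423 and 10 in deleted stroma, 6227 and 13 on average, and 0 for deletion and for the difference of estradiol effects. Member counts went down to 29 in a library. The precision of the deletion effects is that of their 95% intervals from 2 libraries a group.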

Other observations

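Atp6ap2 and Ctss were the members whose replicates differed more than 2-fold in control oil, and Ctss did so in control estradiol as well. No member did so in either deleted group. Atp6ap2 had 301 CPM in control oil library 1 and 99.1 to 174 CPM in the other oil libraries, against 114 to 155 CPM in the estradiol libraries.

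Endothelium markers summed to 2135 to 2794 CPM in oil and 1699 to 2281 CPM in estradiol libraries, with 2 of 10 higher and 2 lower. Granulocyte markers summed to 3.47 to 8.14 CPM in oil and 3.996 to 26.8 CPM in estradiol libraries, with Elane at 0 in every library.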
